A study of Rattus norvegicus with 10 samples.

Results

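The transcriptional repressor REST, the zinc-dependent histone deacetylases and the histone demethylase LSD1 were examined in the lumbar cord of rats made tolerant to morphine. The 10 genes listed were Rest, Hdac1, Hdac2, Hdac3, Hdac4, Hdac5, Hdac6, Hdac8, Hdac11 and Kdm1a, the last of which encodes LSD1. They were found on the array by the RefSeq mRNA accession of each probe, without use of any measured value. An mRNA probe was found for 7 of the 10, each with 1 probe in 1 spot per array, and Hdac4, Hdac5 and Hdac6 were not analysed here. The array carried 15286 mRNA accessions, of which 14237 were matched to a gene symbol.

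The samples were total RNA from the lumbar enlargement of male Sprague Dawley rats of 240 to 260 g, with 1 one-colour array per rat. The morphine tolerance (MT) group, rats 1 to 5, had been given 10 μg of morphine in 10 μl into the intrathecal space 2 times a day over 7 days. The normal saline (NS) group, rats 6 to 10, had been given 10 μl of saline on the same schedule, and tissue of both groups was taken under pentobarbital on day 8, about 1 h after a further morning dose of morphine or saline. Both groups therefore shared the injections and the anaesthesia, and the labels name no transgene or other treatment. The lumbar enlargement is a mixture of neurons, glia and vessels. Gfap, the astrocyte filament gene, lay between 16.19 and 16.38 on the log2 scale over the 10 arrays. Slc17a6, the transporter of excitatory neurons, lay between 12.49 and 13.13. Both are genes of spinal cord tissue.

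REST is a zinc finger protein that binds a DNA element called RE1 and silences neuronal genes in cells that are not neurons, and it remains able to damp the same genes in neurons. Bound REST recruits one complex through SIN3 and another through CoREST, and both carry the class I deacetylases HDAC1 and HDAC2, which remove acetyl groups from histone tails. The CoREST complex also carries LSD1, which removes methyl groups from lysine 4 of histone H3. HDAC3 works in a separate corepressor complex, HDAC8 is a class I enzyme that deacetylates a cohesin subunit, and HDAC11 is the sole class IV enzyme. The gene of the mu-opioid receptor, Oprm1, is a known REST target, and in pain research REST and the deacetylases are studied as silencers of receptor and channel genes.

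The RE1 element is shown because it is the sequence through which REST reaches its targets. Its core was searched as TTCAGCACCNNGGACAG, where N is any base, on both strands of windows of 250 bases before to 50 bases after each gene's start in the RefSeq annotation of the GRCr8 rat genome. Of 33469 windows, 443 (1.32%) held a stretch with at most 3 mismatches to the 15 fixed letters. A window was found for 21 of 36 genes listed from background knowledge as carriers of REST sites, and 3 of them, Vgf, Celsr3 and Unc13a, held such a stretch. In the lines that follow, capitals mark bases equal to the fixed letters, and the sequences read from 5′ to 3′ in the direction of the element.
Vgf: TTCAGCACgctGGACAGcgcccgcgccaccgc
Celsr3: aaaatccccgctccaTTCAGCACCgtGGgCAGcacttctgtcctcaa
Unc13a: TTCAGCACCggGGgCgc
The Vgf stretch lies at chr12:25277021-25277052 on the plus strand, with the element in the 17 bases just before the start of this gene of the minus strand, and differs from the element by C9G, counted from 1 at the element's 5′ end with the element's base first. The Celsr3 stretch lies at chr8:118409002-118409048 on the plus strand, with the element between 119 and 103 bases before the start, and differs by A14G. The Unc13a stretch, at chr16:18415775-18415791 on the plus strand, crosses the gene's start and differs at 3 letters, A14G, A16G and G17C. The windows of 9 of the listed genes, all but Hdac11, were also searched. None of them held such a stretch, and the window of Rest itself had 5 mismatches at best. A stretch of this kind is a match of letters and not a measured site, and REST sites also lie outside these windows, in introns for example.

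No gene of the group differed between MT and NS rats past an adjusted p of 0.05 in limma's test (Benjamini-Hochberg over 20253 RNAs). The count was also 0 of 7 for the study's criteria, taken as a change of over 1.5 times at an unadjusted P below 0.05, and for that P alone. In no member did every MT rat lie on one side of every NS rat. Over all RNAs tested, 40 (0.198%) passed the adjusted threshold, 552 (2.73%) met the criteria, 1385 (6.84%) were higher and 1934 (9.55%) lower in MT rats at an unadjusted P below 0.05, and 1139 (5.62%) had groups that did not overlap. The counts of 0 are to be read against these shares of 7 genes, which come to about 1 gene or less. The test named in the study's methods gave the same counts of 0 on these values.

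**Figure D1:**
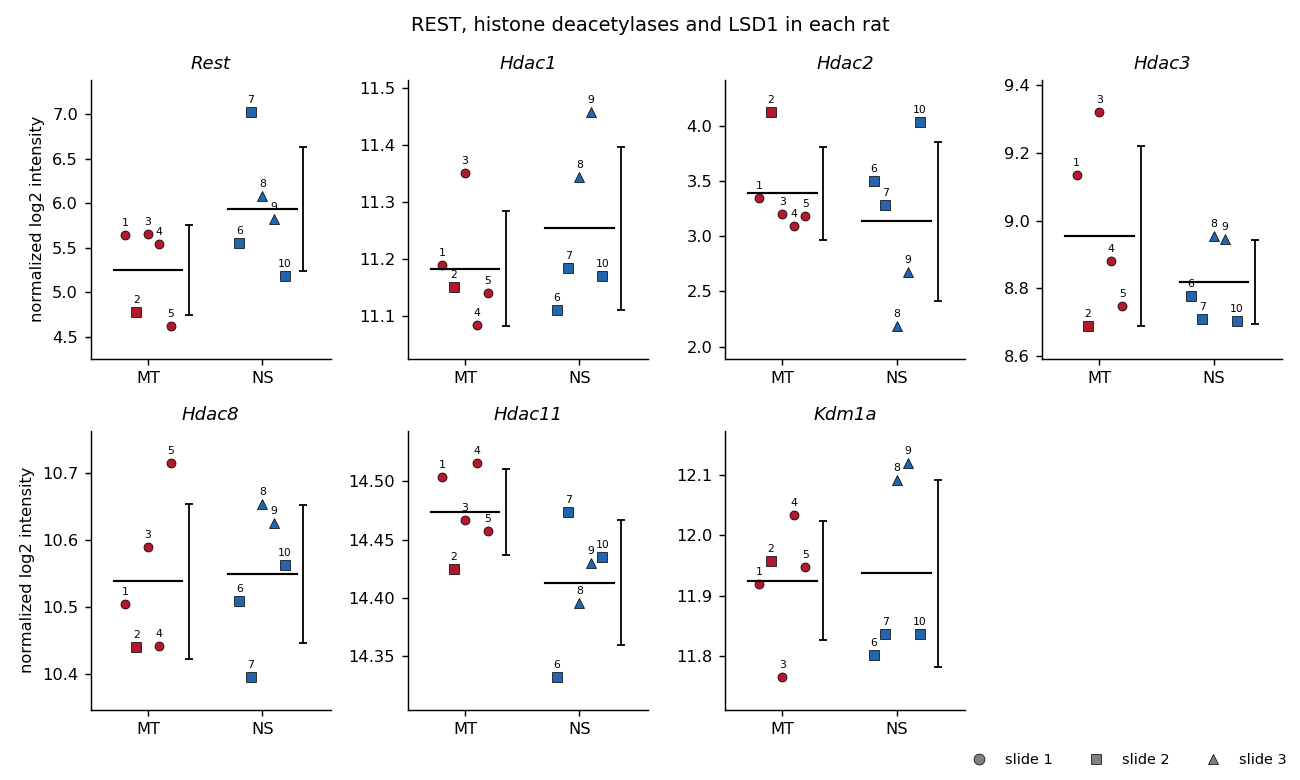
Normalized log2 intensity (vertical axis, a separate range for each gene) of Rest, Hdac1, Hdac2, Hdac3, Hdac8, Hdac11 and Kdm1a in each MT rat (red, rats 1 to 5) and NS rat (blue, rats 6 to 10), with the rat number above each point and the marker shape giving the slide. The horizontal lines are group means and the bars the SD of 5 rats. The groups overlap in every panel, NS rat 7 is the highest point for Rest at 7.03, and NS rats 8 and 9 of slide 3 are the lowest points for Hdac2 and the highest for Kdm1a.

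Rest, the repressor itself, had the largest difference of the 7 genes and also the largest spread. The gene lies at chr14:31213415-31233451 in GRCr8, and its probe was well above background on all 10 arrays. Normalized log2 intensity was 5.64, 4.77, 5.66, 5.54 and 4.62 in MT rats 1 to 5, and 5.55, 7.03, 6.08, 5.83 and 5.19 in NS rats 6 to 10. MT rats 2 and 5 were the lowest and NS rat 7 stood highest, and the remaining MT rats lay among NS rats 6, 9 and 10. Mean level was 5.25 ± 0.51 (SD, n = 5) in MT and 5.93 ± 0.70 (SD, n = 5) in NS rats. The log2 difference was -0.69 with a standard error of 0.349 and a 95% interval from -1.47 to 0.09, which is a level 1.61-fold lower in MT rats with an interval that includes no change. Its unadjusted P was 0.0769 and its adjusted p 0.355 in limma, and the exact two-sided permutation test over all assignments of the rats gave 0.119. The absolute difference was larger than that of 96.3% of the RNAs tested, while the SD within groups was 0.61, against a median of 0.21 over all RNAs.

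The size of the Rest difference depended on single rats and on the scaling, and its sign did not. It was -0.41 without NS rat 7 and -0.87 without NS rat 10, the only one of 23 alternatives with an unadjusted P below 0.05 (0.0307, adjusted p 0.229). It was -0.25 with normexp background correction, which started from median signals and added an offset. With scaling to the 75th percentile, which itself moved the median of all RNAs to 0.07, it was -0.44. The cause of these smaller differences was not tested.

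The hybridization slide moved with the groups. By scan time, slide 1 carried MT rats 1, 3, 4 and 5. The remaining MT rat (rat 2) shared slide 2 with 3 NS rats (6, 7 and 10), and slide 3 carried the other NS rats, 8 and 9. On slide 3, between 58.6% and 63.8% of spots were well above background. The NS arrays of slide 2 had 77.4% to 79.6%, and the MT arrays had 81.1% to 83.9%. Every MT array thus lay above every NS array in this measure, also within slide 2 (82.8% in MT rat 2). Its part in the group differences was not tested. Within slide 2, which alone held both groups, Rest in MT rat 2 was 1.15 below the mean of the 3 NS rats on the log2 scale, and those NS rats ranged from 5.19 to 7.03. The fit with slide as a block takes its group difference from these 4 arrays alone and gave -1.15. A random block gave -0.91 and the fit without slide 3 gave -0.68. The NS rats of slide 3 and slide 2 differed by 0.03 in mean Rest level.

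HDAC1 and HDAC2 are the deacetylases that REST brings to its targets. Hdac1 (chr5:147138328-147165387) was at 11.19, 11.15, 11.35, 11.08 and 11.14 in MT rats 1 to 5 and at 11.11, 11.18, 11.34, 11.46 and 11.17 in NS rats 6 to 10. All values lay within 0.376 of each other on the log2 scale. MT rats differed from NS rats by -0.07 ± 0.086 (SE), with a 95% interval from -0.26 to 0.12 (adjusted p = 0.703 in limma), and the interval on the linear scale ran from 0.833 to 1.09 times the NS level. The NS rats of slide 3 were 0.25 higher than those of slide 2, and without slide 3 the difference was 0.03, so its sign is not settled.

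Hdac2 (chr20:42101815-42126486) was near the background of the array, well above it in 4 of 5 MT rats and 2 of 5 NS rats. Its level was 3.35, 4.13, 3.21, 3.09 and 3.19 in MT rats 1 to 5 and 3.50, 3.28, 2.18, 2.67 and 4.04 in NS rats 6 to 10. MT rat 2 and NS rat 10, both of slide 2, were the highest, and NS rats 8 and 9 of slide 3 the lowest. The groups differed by 0.26 ± 0.339 (SE) with an interval from -0.50 to 1.01 (adjusted p = 0.729 in limma). Without slide 3 the difference was -0.22 and with normexp -0.05. It was 0.51 with scaling to the 75th percentile and 0.52 with slide as a block, so no direction can be given for Hdac2. The NS rats of slide 3 were 1.18 lower than those of slide 2 (a log2 difference of -1.18), where the median absolute difference of this kind over all RNAs was 0.268.

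HDAC3 is the enzyme of a corepressor complex that serves nuclear receptors. Hdac3 (chr18:30021847-30041061) was at 9.13, 8.69, 9.32, 8.88 and 8.75 in the MT rats and at 8.78, 8.71, 8.95, 8.95 and 8.70 in the NS rats, in the order of their numbers. MT rats 1 and 3 were above all NS rats, while MT rat 2 was below all of them. Between groups the log2 difference was 0.14 ± 0.128 (SE), with an interval from -0.15 to 0.42 (adjusted p = 0.618 in limma). The SD was 0.27 in MT and 0.12 in NS rats.

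Hdac8 (chrX:71425240-71632865) was at 10.51, 10.44, 10.59, 10.44 and 10.71 in the MT rats and at 10.51, 10.40, 10.65, 10.62 and 10.56 in the NS rats. The groups lay over each other, with MT rat 5 the highest and NS rat 7 the lowest. MT minus NS was -0.01 ± 0.079 (SE) on the log2 scale, with an interval from -0.19 to 0.17 (adjusted p = 0.956 in limma).

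HDAC11, the class IV enzyme, is abundant in the nervous system. Hdac11 (chr4:125203044-125224584) was at 14.50, 14.42, 14.47, 14.52 and 14.46 in the MT rats and at 14.33, 14.47, 14.40, 14.43 and 14.43 in the NS rats. It varied least of the 7, with an SD within groups of 0.046. MT rats lay 0.06 ± 0.056 (SE) higher on the log2 scale, with an interval from -0.06 to 0.18 (adjusted p = 0.612 in limma, exact permutation p = 0.0794). On the linear scale this interval ran from 0.956 to 1.14 times the NS level, the narrowest of the group.

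Kdm1a (chr5:154066436-154121913), the gene of LSD1, was at 11.92, 11.96, 11.77, 12.03 and 11.95 in the MT rats and at 11.80, 11.84, 12.09, 12.12 and 11.84 in the NS rats. NS rats 8 and 9 of slide 3 were the highest of the 10, and the NS rats of slide 2 were below every MT rat but rat 3. On the log2 scale MT minus NS was -0.01 ± 0.089 (SE), with an interval from -0.21 to 0.18 (adjusted p = 0.953 in limma). Within slide 2, MT rat 2 was 0.13 above the NS mean, and without slide 3 the difference was 0.10 (an unadjusted P above the threshold). The NS rats of slide 3 were 0.28 higher than those of slide 2, close to the median absolute difference over all RNAs of 0.268.

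**Figure D2:**
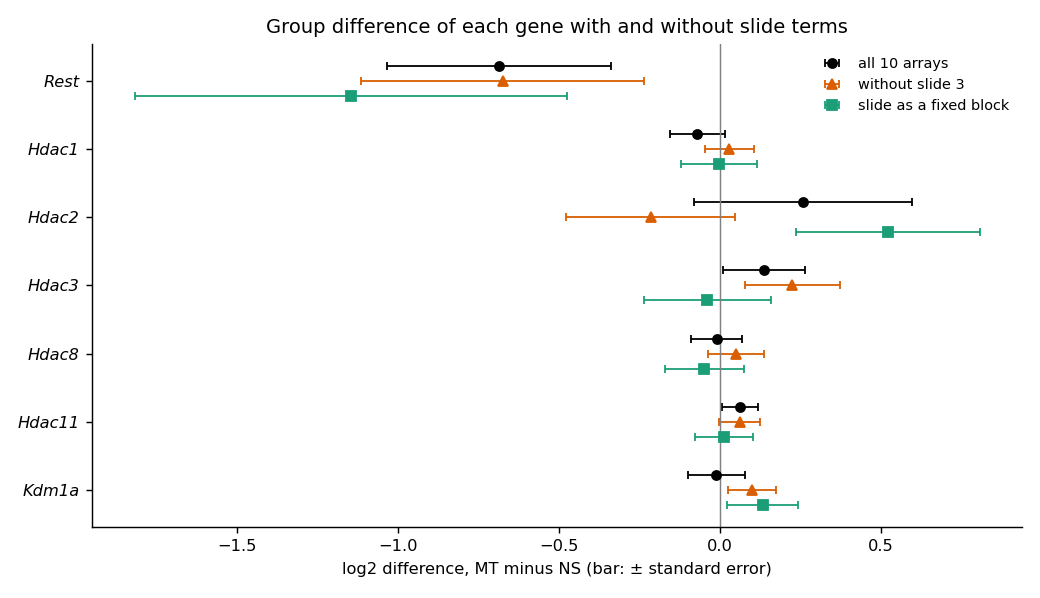
Log2 difference MT minus NS (horizontal axis, with bars of ± 1 standard error) of each of the 7 genes over all 10 arrays (circles), without the 2 arrays of slide 3 (triangles) and with slide as a fixed block (squares). The difference of the fixed block rests on 1 MT and 3 NS arrays, while its standard error uses the spread on all slides. Rest lies below 0 in each fit, from -1.15 to -0.68. Hdac2 goes from 0.26 over all arrays to -0.22 without slide 3 and to 0.52 with slide as a fixed block. The differences of the remaining genes lie between -0.07 and 0.22.

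Over the 10 arrays, the Pearson r of the other members with Rest ran from -0.45 for Hdac2 to 0.32 for Hdac1. Of 13313 mRNAs compared, the 3 with the pattern most like Rest were Bmf, a BH3-only gene of apoptosis, Rcsd1, whose protein binds the actin capping protein CapZ, and Ascc2, a subunit of a transcription cointegrator complex. Their r with Rest was 0.977, 0.947 and 0.941 and their Spearman rho 0.891, 0.915 and 0.830. Without NS rat 7 and MT rat 5, the arrays farthest from the median of Rest, r was 0.914, 0.832 and 0.904. Bmf was at 7.24, 6.81, 7.35, 7.27 and 6.71 in the MT rats and at 7.51, 8.21, 7.61, 7.34 and 7.05 in the NS rats, so that MT rats 2 and 5 were again the lowest and NS rat 7 again the highest. These genes were picked for the likeness among all mRNAs tested, on arrays they share with Rest, and the likeness is given as a description with no test.

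**Figure D3:**
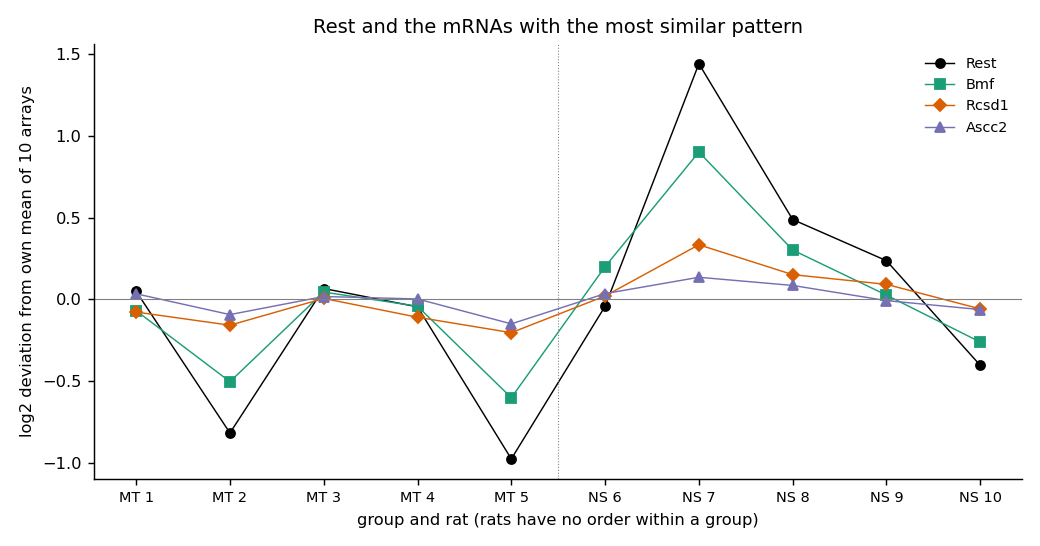
Deviation of the log2 intensity from each gene's own mean over the 10 arrays (vertical axis) for Rest, Bmf, Rcsd1 and Ascc2 in each rat (horizontal axis, MT left of the dotted line). The lines join the points of a gene to aid the eye and imply no order of rats. All 4 genes are highest in NS rat 7 and lowest in MT rat 5.

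The partners of REST were described from a list of corepressor and complex genes. Of its 32 genes, 21 had a probe and were tested, 9 of them higher in MT rats, with a median log2 difference of -0.01 against -0.00 over all RNAs. None passed the adjusted threshold. At an unadjusted P below 0.05, 3 were higher and 1 was lower (backgrounds of 6.84% and 9.55%). Smarca4, which encodes BRG1, the ATPase of SWI/SNF chromatin remodelling complexes, was 0.26 higher (adjusted p = 0.197 in limma). Its MT rats were at 12.97 to 13.11 and its NS rats at 12.59 to 12.91, without overlap. This held for 1 of the 21 genes, against 5.62% of all RNAs. Usp7, a protease that removes ubiquitin from REST, was 0.36 higher (adjusted p = 0.263), while Tbl1xr1, of the HDAC3 complex, was 0.30 lower, with a log2 difference of -0.30 (adjusted p = 0.242). With slide as a block these became 0.11 for Smarca4, 0.08 for Usp7 and -0.07 for Tbl1xr1. Rcor2 and Mbd3, subunits of class I deacetylase complexes, had log2 differences of -0.01 and -0.02. The list's genes for CoREST itself (Rcor1) and for SIN3A and SIN3B were not analysed here.

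Among the other deacetylases, 6 of 10 listed genes were tested, with a median of -0.09. At an unadjusted P below 0.05, 1 gene was lower (background of 9.55%). This was Sirt7, a NAD-dependent sirtuin of the nucleolus, with a log2 difference of -0.17 (adjusted p = 0.269 in limma). Sirt5, a mitochondrial sirtuin, had a difference of 0.11 and Sirt3, another one, of -0.10, and neither passed that threshold. With slide as a block the differences were 0.0162 for Sirt7, 0.0490 for Sirt5 and -0.0185 for Sirt3. Hdac10, the remaining zinc-dependent enzyme measured, had a difference of -0.09 (adjusted p = 0.709).

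The acetyltransferases, which add the groups that deacetylases remove, gave the smallest P of the lists around the members. Of 12 listed genes, 8 were tested and none passed the adjusted threshold. At an unadjusted P below 0.05, 1 was higher and 2 were lower (backgrounds of 6.84% and 9.55%). In 2 of the 8 the groups did not overlap, against 5.62% of all RNAs. Kat2b, the gene of PCAF, was at 12.42, 12.70, 12.24, 12.62 and 12.49 in the MT rats and at 12.86, 12.89, 12.80, 12.84 and 13.01 in the NS rats. Every MT rat was below every NS rat, and the log2 difference was -0.39 ± 0.092 (SE; adjusted p = 0.115 in limma). Crebbp, the gene of the CREB-binding protein, had MT rats from 9.36 to 9.54 and NS rats from 9.11 to 9.36, with a difference of 0.21 (adjusted p = 0.209), and its groups met without overlapping. Kat8, which acetylates lysine 16 of histone H4, had a difference of -0.17 (adjusted p = 0.290). Within slide 2 alone, as the slide block gives it, the differences were -0.22 for Kat2b, 0.32 for Crebbp and -0.03 for Kat8.

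The partners of the class IIa enzymes HDAC4 and HDAC5, which shuttle between nucleus and cytoplasm with 14-3-3 proteins and bind MEF2 factors, were described although these enzymes were not analysed here. Of 14 listed genes, 11 were tested, 6 of them higher, with a median of 0.01. Ankra2, an ankyrin repeat protein that binds HDAC4, had a log2 difference of -0.21 (adjusted p = 0.276 in limma) and Ywhaq, a 14-3-3 protein, of -0.20 (adjusted p = 0.296). Mef2b had a difference of -0.35 (adjusted p = 0.451), which turned to 0.02 without slide 3. With slide as a block Ankra2 and Ywhaq were at -0.12 and -0.11.

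Of the other lysine demethylases, 7 of 12 listed genes were tested. At an unadjusted P below 0.05, 1 was lower (background of 9.55%). In 1 of the 7 the groups did not overlap, against 5.62% of all RNAs, and both counts are of Kdm1b. Kdm1b, the gene of LSD2 and the closest relative of Kdm1a, was at 10.28, 10.41, 9.78, 10.54 and 10.13 in the MT rats and at 10.58, 10.66, 10.80, 10.85 and 10.64 in the NS rats. Every MT rat was below every NS rat. The log2 difference was -0.48 ± 0.135 (SE; adjusted p = 0.154 in limma), and with slide as a block it was -0.22. Kdm4a and Kdm5b, demethylases of lysines 9 and 4 of histone H3, had differences of -0.22 and -0.09, with adjusted p of 0.451 and 0.549. Without slide 3 these were -0.0385 and -0.0064, and without NS rat 9 Kdm5b was at -0.0449.

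Genes known to carry REST sites, most of them neuronal, were described as the repressor's targets. Of 36 listed genes, 31 were tested, 21 of them higher and 10 lower, with a median log2 difference of 0.12 against -0.00 over all RNAs tested. Of the 20253 RNAs tested, 10078 were higher. At an unadjusted P below 0.05, 6 of 31 were higher and 0 lower, where 6.84% of all RNAs were higher and 9.55% lower. In 5 of 31 the groups did not overlap, against 5.62% of all RNAs. None passed an adjusted p of 0.05. The largest difference, 0.72 for Crh, a stress neuropeptide gene, had an adjusted p of 0.463 in limma and rested on MT rats 2 and 5, at 8.21 and 9.28, with the other 8 rats between 6.50 and 7.08. The 6 included Chga, Glra1, Syp, Scn2a and Chrm4, and those without overlap were Chga, Glra1, Syp, Chrm4 and Chgb. Gad1 of this list is also a neuron marker.

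Chga, the gene of chromogranin A of dense core vesicles, was at 14.83, 14.92, 14.86, 14.87 and 14.86 in the MT rats and at 14.70, 14.70, 14.52, 14.55 and 14.78 in the NS rats. Every MT rat was above every NS rat, and NS rats 8 and 9 of slide 3 were the lowest. Its log2 difference was 0.22 ± 0.067 (SE; adjusted p = 0.174 in limma), and 0.14 without slide 3.

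Glra1, the adult subunit of the glycine receptor, was at 10.21, 10.16, 10.33, 10.13 and 10.24 in the MT rats and at 9.79, 8.92, 9.67, 9.84 and 10.02 in the NS rats. Every MT rat was above every NS rat, and NS rat 7 was the lowest by a wide gap. The log2 difference of Glra1 was 0.57 ± 0.181 (SE; adjusted p = 0.185 in limma), and 0.38 without NS rat 7. Syp, which encodes the synaptic vesicle protein synaptophysin, had MT rats at 10.78 to 10.96 and NS rats at 10.53 to 10.72, with a difference of 0.21 (adjusted p = 0.196) that was 0.11 with slide as a block. Scn2a, a sodium channel gene, had a difference of 0.26 with overlapping groups. Chrm4, a muscarinic receptor gene, had a difference of 0.27, with MT rats from 6.92 to 7.35 and NS rats from 6.66 to 6.92.

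None of the 3 genes whose promoter windows held an RE1-like stretch passed an unadjusted P of 0.05 in limma. Vgf, a secreted neuropeptide precursor, was at 14.43, 14.44, 14.46, 14.41 and 14.65 in the MT rats and at 14.24, 14.35, 14.32, 14.37 and 14.42 in the NS rats, with a log2 difference of 0.14 (adjusted p = 0.347, exact permutation p = 0.0159). The groups overlapped only between MT rat 4 and NS rat 10. Celsr3, a cadherin of axon guidance, had a difference of 0.11 (adjusted p = 0.652), with MT rats at 9.74 to 10.16 and NS rats at 9.53 to 10.01. Unc13a, a vesicle priming gene whose probe was well above background in 5 MT and 3 NS rats, had a difference of -0.07 (adjusted p = 0.840).

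**Figure D4:**
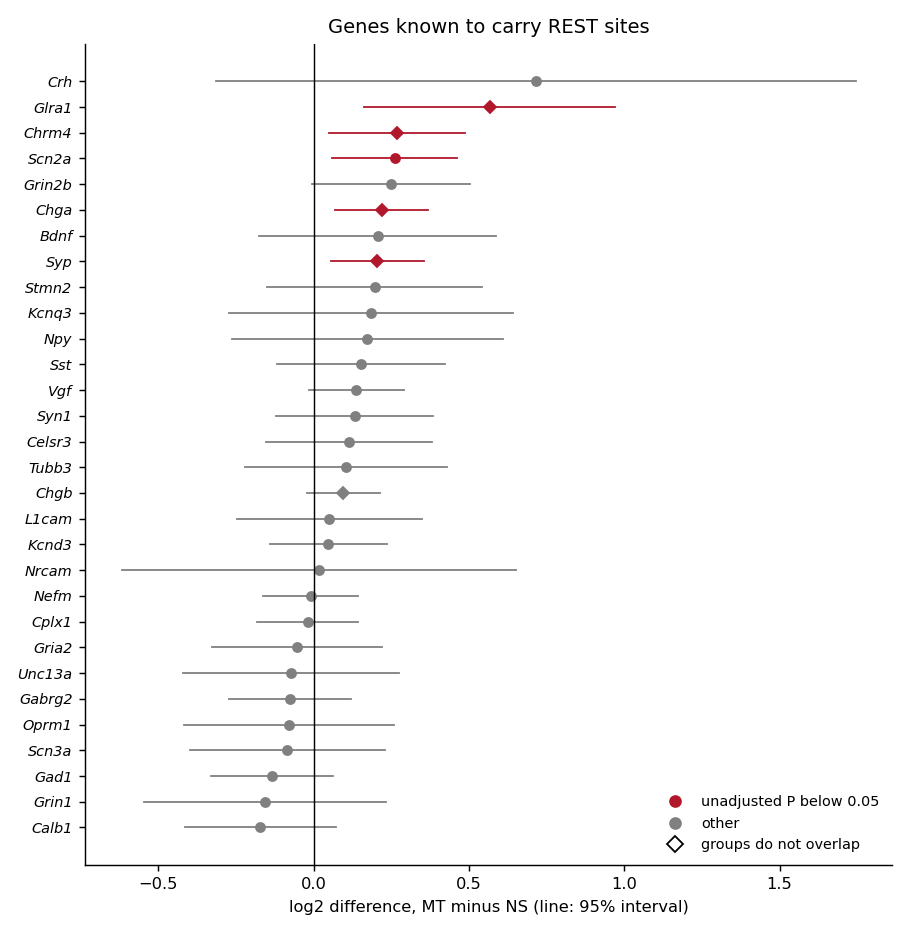
Log2 difference MT minus NS (horizontal axis, with lines for the 95% interval of the limma fit) of 30 of the 31 tested genes known to carry REST sites, in order of the difference. Red marks an unadjusted P below 0.05 and diamonds mark genes whose groups do not overlap. The red genes all lie above 0, from 0.21 for Syp to 0.57 for Glra1, and Oprm1 lies at -0.08.

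Cell type markers moved with the groups beside this list, and in bulk tissue fewer cells of a type and less RNA per cell cannot be told apart. The counts below are to be read against all RNAs, of which 6.84% were higher and 9.55% lower at an unadjusted P below 0.05. Of 9 neuron markers, 4 were higher and 2 of these, Map2 and Rbfox3, at an unadjusted P below 0.05, with a median of -0.06. The list mean lay between 11.16 and 11.29 in MT and between 11.09 and 11.22 in NS rats. All 4 motor neuron markers were higher in MT rats, with a median of 0.29 and none at an unadjusted P below 0.05. All 8 microglia markers were lower, 5 of them at an unadjusted P below 0.05, with a median of -0.34 and list means of 12.33 to 12.89 in MT and 12.64 to 13.17 in NS rats. All 5 neutrophil markers were higher, 3 of them at that threshold, with a median of 0.64 and list means of 5.73 to 6.21 in MT and 4.72 to 5.50 in NS rats. Of 5 astrocyte markers, 4 were lower, 2 of them at that threshold, with a median of -0.08 and list means of 14.26 to 14.36 in MT and 14.36 to 14.49 in NS rats. List means did not overlap for neutrophil markers and, by a narrow gap (14.359 against 14.362), for astrocyte markers. Groups of single markers did not overlap in 3 of 5 neutrophil, 3 of 8 microglia, 1 of 9 neuron and 0 of 5 astrocyte markers, against 5.62% of all RNAs. The other marker lists had medians of -0.17 (oligodendrocytes), -0.03 (their precursors), -0.05 (endothelium), -0.03 (erythrocytes), -0.01 (B and T cells), 0.07 (dorsal root ganglion), 0.22 (meningeal fibroblasts) and 0.05 (skeletal muscle), with 1 oligodendrocyte and 1 B or T cell marker lower at that threshold. Their part in the levels of Rest and of its targets was not tested.

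Slide also moved with the groups, and the list was described again under other fits. The fit with slide as a fixed block takes each difference from 1 MT rat (rat 2) and 3 NS rats, so its count of higher genes describes 1 MT animal. The median over all RNAs was 0.0056 without slide 3, 0.0115 with the fixed block and 0.0066 with a random block. Without slide 3, 26 of the 31 genes were higher, with a median of 0.14. Of these 26, 8 were higher at an unadjusted P below 0.05, as were 8.79% of all RNAs. With slide as a fixed block, 28 were higher, 1 of them at that threshold, with a median of 0.17. With a random block 2 passed and the median was 0.14, where 1.80% and 2.71% of all RNAs were higher at that threshold. Under the 75th percentile scaling 26 were higher and the median was 0.16, of which 0.07 was the shift of all RNAs. At that threshold 7 were higher, against 9.26% of all RNAs. The median also moved with single rats, to 0.059 without NS rat 7 and to 0.074 without MT rat 5, where 1 gene was lower at that threshold.

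**Figure D5:**
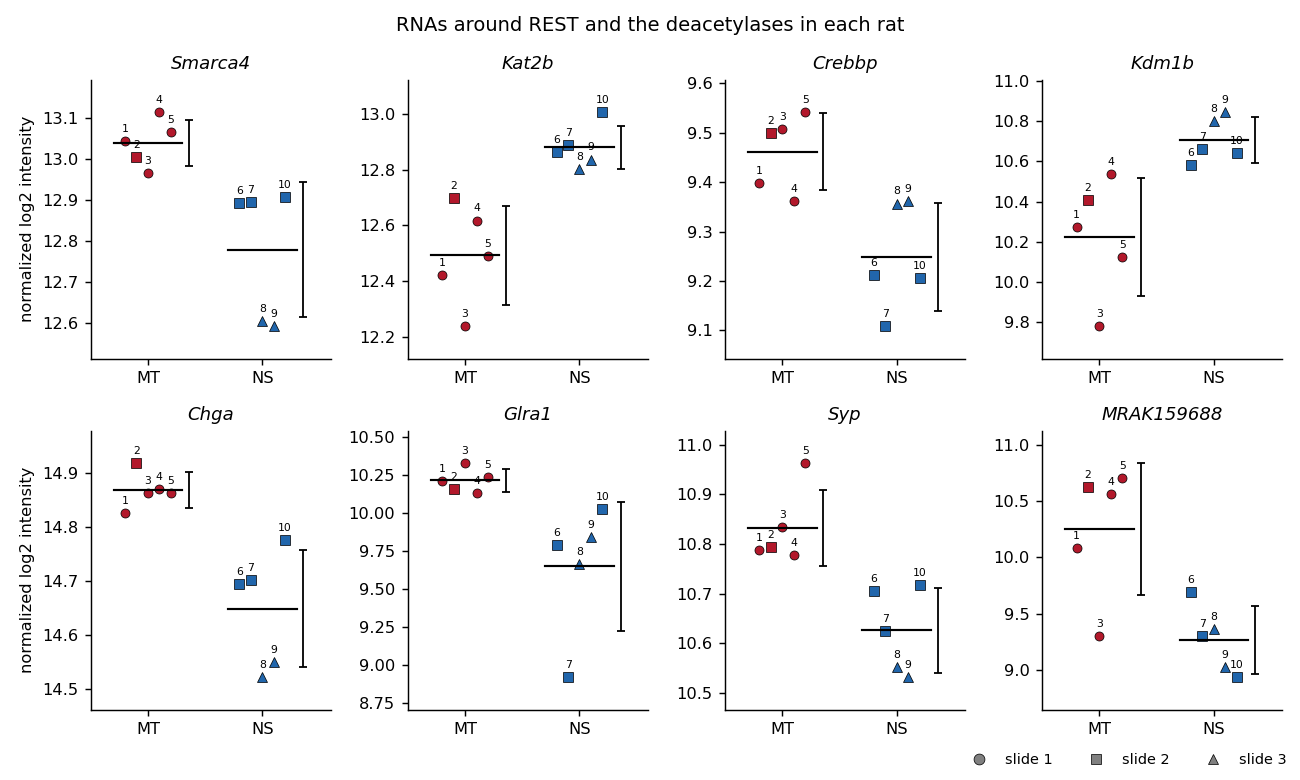
Normalized log2 intensity (vertical axis, a separate range for each RNA) of Smarca4, Kat2b, Crebbp, Kdm1b, Chga, Glra1, Syp and the lncRNA MRAK159688 in each MT rat (red) and NS rat (blue), with the rat number above each point, the marker shape giving the slide, lines for group means and bars for the SD of 5 rats. All but MRAK159688 have groups that do not overlap, and in MRAK159688 MT rat 3, at 9.30, lies among the NS rats.

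Oprm1, the gene of the receptor that morphine acts on, had 5 probes for different transcripts, of which 3 were not well above background on any array. The brightest was at 5.90, 5.86, 5.40, 5.55 and 6.09 in the MT rats and at 5.83, 6.01, 5.50, 5.80 and 6.07 in the NS rats. The groups lay over each other, with a log2 difference of -0.08 ± 0.152 (SE; adjusted p = 0.817 in limma) and an interval from -0.42 to 0.26. The other probe tested, well above background on 6 arrays, had a difference of -0.37 (adjusted p = 0.636). Its highest values, 4.95 and 4.82, were those of slide 3, and without that slide the difference was 0.25.

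MRAK159688 is the lncRNA also called Fos downstream transcript, which has been described to bind Sin3a and CoREST, the partners of REST. It was measured in 3 spots per array and was at 10.09, 10.62, 9.30, 10.56 and 10.70 in the MT rats and at 9.69, 9.30, 9.36, 9.03 and 8.93 in the NS rats. In 4 of 5 MT rats it was above every NS rat, and MT rat 3 lay within the NS range. The log2 difference was 0.99 ± 0.269 (SE), a level 1.99-fold that of NS rats with an interval from 1.31 to 3.01 (adjusted p = 0.146 in limma, exact permutation p = 0.0317). It met the study's criteria but not the adjusted threshold. The paper reports this lncRNA among those that changed in the same direction, with a significant difference, by RT-qPCR. On the arrays the log2 difference was 0.95 without slide 3, at an unadjusted P below 0.05 in limma. With slide as a block it was 1.31, a difference taken from 1 MT rat (rat 2) and 3 NS rats. No member of the REST and deacetylase group met those criteria, and that the members and this lncRNA differed in response was not tested.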

How the data were processed

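Values came from 10 one-colour arrays. The authors read the scanned images with Agilent Feature Extraction 11.0.1.1 and deposited a linear, background-subtracted intensity for each spot, along with outlier and background flags. The authors also deposited a table of quantile-normalized log2 intensities made with GeneSpring, used here as an alternative (r with the values used here 0.996 to 1.000 per array). The array's genome build is not given in the sources used here. Gene symbols and positions came from RefSeq on GRCr8 and are those of genes, not probes.

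In R 4.3.3, the packages limma 3.58.1 and data.table (1.17.8) were used. After a floor of 1, the log2 intensities of 42136 spots were quantile normalized, outlier spots dropped and the spots of each RNA averaged. The filter asked for at least 5 arrays on which over 50% of an RNA's spots exceeded background clearly, which left 20253 RNAs, 13342 of them mRNAs. Levels of different genes were not compared, and of several probes of a gene the one with the highest mean level stood for it. MT and NS were compared by limma with Benjamini-Hochberg adjustment over all RNAs, with exact two-sided permutation over all assignments of the rats for single genes (smallest possible p 0.00794). The number of arrays limits precision.

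The members and gene lists were chosen with earlier results of these data known. The genes named were the members, the 3 of each list with the smallest unadjusted P, Oprm1, MRAK159688 and the 3 mRNAs most correlated with Rest. Rcor2, Mbd3, Hdac10, Crh, Scn2a, Chrm4, Chgb, Map2, Rbfox3, Vgf, Celsr3, Unc13a, Gfap and Slc17a6 fall outside that rule and were added after their values were seen. Arrays that share a scan time were taken as 1 slide. Alternatives were the 75th percentile scaling, normexp (offset 50, on median signals, since mean signals were not used here), the deposited table, other filters, outlier spots kept, separate probes, a variance trend, array weights, the methods' test, slide blocks and leaving out slide 3 or each rat. Values of a few further genes are not reported here. The steps were tested on simulated data. Figures used matplotlib 3.10.9 in Python 3.11.15.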

Additional observations from a re-analysis of the deposited data

Results flagged for a closer look

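In the MT group, the Hdac2 level of rat 2 (4.13) stood apart from those of the other 4 rats (3.09 to 3.35), with a gap of 0.752 of the group's whole range, above Dixon's 95% critical value for 5 samples. It was the only one of 56 groups examined (the 7 members, the named genes of the lists, Oprm1 and MRAK159688, in each of MT and NS) with such a value, and chance alone gives about 1 in 20. Rat 2 is the only MT rat on slide 2, where NS rat 10 also had a high Hdac2 level (4.04).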

How the results depend on the processing

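Under 23 alternatives, none of the 7 genes passed the adjusted threshold in any, and the groups of each overlapped in the 18 alternatives that change the values or the rats (the others change the test alone). The count past a 1.5-fold with an unadjusted P below 0.05 was 0 throughout except for 1 gene, Rest, without NS rat 10, so that leaving out 1 rat gave 0 to 1. Leaving out each rat in turn gave log2 differences of -0.87 to -0.41 for Rest, -0.11 to -0.02 for Hdac1, 0.02 to 0.48 for Hdac2, 0.04 to 0.20 for Hdac3, -0.055 to 0.015 for Hdac8, 0.04 to 0.08 for Hdac11 and -0.0467 to 0.0327 for Kdm1a. Rest and Hdac11 kept their sign under all alternatives run. Without slide 3, the sign turned for Hdac1 (0.0276), Hdac2 (-0.22), Hdac8 (0.0491), Kdm1a (0.10), Mef2b (0.0223) and the dimmer Oprm1 probe (0.25). With slide as a fixed block it turned for Hdac3 (-0.0408), Kdm1a (0.13), Sirt7 (0.0162) and the dimmer Oprm1 probe (0.50), and with a random block for Kdm1a (0.0391). Array weights turned Hdac2 (-0.12), Hdac8 (0.02) and Kdm1a (0.10). The deposited table turned Hdac8 (0.0027) and Kdm1a (0.0010), normexp turned Hdac2 (-0.0537) and the 75th percentile scaling turned the brighter Oprm1 probe (0.18). Without single rats that probe ranged from -0.1645 to 0.0109. The cause of these turns was not tested, apart from the arrays each slide fit leaves out or rests on. Genes known to carry REST sites and higher at an unadjusted P below 0.05 numbered 6 over all arrays, 5 to 8 without single rats, 1 with the fixed block and 2 with the random block. Hdac2 gave no value with the filter on all 10 arrays. The runs on this count and on the named genes outside the group were added after the data were seen. Random-block fits used an estimated correlation of 0.463. No paired analysis was possible because the groups share no rat numbers. Signal over background limits Hdac2, Unc13a and the dimmer Oprm1 probe most.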
